A study of Mus musculus with 12 samples.

Results

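The genes described here are 40 mouse genes of glutathione metabolism, taken by symbol from a testis expression table of 20788 genes. They comprise 3 genes of glutathione synthesis, 5 of its recycling and breakdown, 7 glutathione peroxidases, 21 glutathione transferases and 4 partners of the thioredoxin and peroxiredoxin systems. All 40 had a row in the table, 38 passed the filter on low counts and were tested, and Gpx2 and Gstm3 did not pass it.

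RNA of F1 testes from mice whose strain is labelled IRC was sequenced in 12 libraries, 3 for each of 4 groups. The groups are overexpression (8276OV), testes transfected with a virus that overexpresses lncRNA8276, a long non-coding RNA; its control, 5NC; knockdown (8276KD), testes transfected with a virus that inhibits lncRNA8276; and its control, 3NC. The labels give neither age nor what the 2 control groups received, and pairing 5NC with overexpression and 3NC with knockdown follows the order in which the design text lists them. Separate animals for the libraries of a group are not stated either, so a p-value here reflects only how far these samples differ among themselves, which could be technical.

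Glutathione is a tripeptide of glutamate, cysteine and glycine and the most abundant small thiol of animal cells. Glutamate-cysteine ligase, with its catalytic subunit Gclc and its modifier subunit Gclm, joins glutamate to cysteine, and glutathione synthetase, Gss, adds glycine. Peroxidases spend glutathione to reduce peroxides, glutathione reductase returns it to its reduced form, and transferases attach it to electrophilic compounds. In the testis the peroxidase Gpx4 is known for its high level in spermatids and for becoming a structural protein of the sperm midpiece.

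The sequences below are shown because Gss is the only member that passed a test, Gclm encodes a subunit of the enzyme before it, and Gstm5 is the most abundant member. Each is the RefSeq promoter window on GRCm38.p6, 250 bases before to 50 after the gene's start, written 5′ to 3′ on the gene's own strand. The windows lie at chr2:155592761-155593060 on the minus strand for Gss, chr3:122245307-122245606 on the plus strand for Gclm and chr3:107895604-107895903 on the plus strand for Gstm5. Capitals mark a match to TGACNNNGC, the core of the antioxidant response element, on either strand.
Gss: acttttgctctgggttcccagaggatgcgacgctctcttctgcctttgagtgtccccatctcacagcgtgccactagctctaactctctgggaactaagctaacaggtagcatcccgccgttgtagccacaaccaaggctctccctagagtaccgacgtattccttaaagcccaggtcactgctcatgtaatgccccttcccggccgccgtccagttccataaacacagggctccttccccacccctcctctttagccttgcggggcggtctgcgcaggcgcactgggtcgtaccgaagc
Gclm: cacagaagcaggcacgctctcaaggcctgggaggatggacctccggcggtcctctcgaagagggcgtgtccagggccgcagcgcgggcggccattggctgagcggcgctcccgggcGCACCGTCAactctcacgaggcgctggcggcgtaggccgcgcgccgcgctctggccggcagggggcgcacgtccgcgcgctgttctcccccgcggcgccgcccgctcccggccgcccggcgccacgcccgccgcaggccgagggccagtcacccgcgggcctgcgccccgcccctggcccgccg
Gstm5: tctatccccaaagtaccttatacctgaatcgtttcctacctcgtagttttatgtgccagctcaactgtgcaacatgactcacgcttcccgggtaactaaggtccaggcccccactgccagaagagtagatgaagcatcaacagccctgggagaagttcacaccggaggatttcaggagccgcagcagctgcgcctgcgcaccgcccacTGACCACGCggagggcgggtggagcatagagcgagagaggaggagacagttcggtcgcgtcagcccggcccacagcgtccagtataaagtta

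The Gclm match is on the reverse strand and begins 134 bases before the start, and the Gstm5 match is on the forward strand and begins 42 bases before it. No match to these letters lies in the Gss window. Of the members, 35 had at least 1 RefSeq window, and Gclc, Gsr, Gsta4, Gstt2 and Oplah had none. The motif was found in 9 of 51 windows of members (17.6%), against 12.4% of all 32851 windows. By gene, 7 of 35 members held it, namely Gclm, Ggt1, Gsta3, Gstm5, Gstm7, Mgst1 and Txndc2, which is 20% against 14.0% of all genes. The cAMP response element TGACGTCA, the site of the CREM factor family that acts in spermatids, was found in 1 window, that of Ggt1 (1.96% of member windows, against 1.79% of all). Such a match is a description of the letters and not a site of binding.

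Total counts ran from 13485479 to 15771655 per library, and 18635 to 18911 genes were detected. Overexpression 2, 5NC 2 and 5NC 3 had the lowest totals, at 13485479, 13847277 and 13699547. Library 3NC 2 stood apart: its summed level of 10 leukocyte markers was 513 CPM (the estimated count scaled to its library's normalised total), against 69.7 to 122 CPM in the other 11 libraries, and that of 10 interferon-response genes was 350.5 CPM, against 6.57 to 27.2 CPM. Knockdown 1 held 850.2 CPM of 10 epididymis markers, against 54.6 to 325 CPM in the others. LncRNA8276 was not analysed here, so the labels were not checked against their target. Markers of spermatids were abundant in all libraries, with 20474 to 28930 CPM for 10 genes of elongating spermatids.

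Between genes, levels were compared on the deposited values per length, read here as FPKM, since no header states their unit. The 40 listed genes stood toward the upper end of the table. Of them, 9 (22.5%) had a median over the 12 libraries of at least 100 FPKM, against 5.76% of all genes. These 9 include all 4 listed partners of the thioredoxin and peroxiredoxin systems, Txndc2, Txndc8, Txnrd3 and Prdx4. A median below 1 FPKM was found for 4 of 40 members, against 35.5% of all genes. The 4 were Gpx7, Ggt1, Gstm3 and Gpx2. These shares depend on how the list of 40 was drawn. It leaves out Gsta1, Gstp2, Gstp3, Ggt6 and Gpx5, which did not pass the filter on low counts, and also Gstt4, which did.

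Gstm5 had the highest level of the 40, with a lowest value of 1694, a median of 1945 and a highest value of 2149 FPKM. It encodes a mu-class transferase known from testis and sperm, where it is found in the fibrous sheath of the tail. Next came Gpx4, the peroxidase that reduces lipid peroxides in membranes, at 897, 1044 and 1253 FPKM. Txndc2, the sperm thioredoxin Sptrx-1, followed at 407, 450 and 495 FPKM. The ranges of these 3 genes do not overlap, so their order is the same in every library.

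Below them lay a group whose ranges overlap one another. Its medians were 231 FPKM for the mu-class Gstm1, 224 for Txndc8 (a thioredoxin of spermatids), 211 for Txnrd3 (thioredoxin-glutathione reductase), 210 for Gstm2 and 199 for the omega-class Gsto2. Prdx4, a peroxiredoxin of the endoplasmic reticulum, had a median of 142 FPKM and a range of 117 to 160. After Prdx4 the order drops to Gstp1, the pi-class enzyme, with a median of 63.0 FPKM and the wide range of 32.2 to 137, which reaches into that of Prdx4.

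The enzymes that make glutathione lay well below the leading enzymes that use it. Gclm had a median of 20.4 FPKM (17.9 to 25.5), Gclc 9.62 FPKM (8.20 to 12.2) and Gss 6.62 FPKM (3.59 to 9.34). Gclm was above Gclc in every library, since their ranges do not overlap. Glutathione reductase, Gsr, had a median of 5.52 FPKM and a range of 4.24 to 7.16, which overlaps that of Gss. Among breakdown genes, Oplah, the 5-oxoprolinase that returns glutamate to the cycle, led with a median of 29.9 FPKM. Chac2, which splits glutathione inside the cell, had a median of 2.54 FPKM, and Ggt1, which splits it at the cell surface, 0.455 FPKM.

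Among the 21 transferases and among the 7 peroxidases listed here, 1 gene carried most of the level. Gstm5 made up 59.2% to 71.3% of the summed FPKM of the 21 transferases across libraries, and Gpx4 made up 86.5% to 94.2% of that of the 7 peroxidases. Both lowest shares were in 3NC 2. These sums leave out the peroxidase Gpx5, at 416 CPM in knockdown 1 beside 920 CPM of Gpx4. They also leave out the transferase Gstt4, with group means of 248 to 301 CPM. Unlike FPKM, these CPM values are not per length, so they do not show how far the shares would change. The other peroxidases had medians of 36.3 FPKM for Gpx6, 26.7 FPKM for Gpx1, 7.87 FPKM for Gpx3, which is secreted, 6.08 FPKM for Gpx8 and 0.91 FPKM for Gpx7, both of the endoplasmic reticulum. Gpx2, the peroxidase of gut epithelium, had at most 1 count in any library and 4 in all.

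The remaining transferases covered the middle of the order. Their medians were 60.7 FPKM for Gsta4, 50.2 for the microsomal Mgst1, 29.2 for Gstz1, 22.9 for Gsta3, 21.9 for Gstt2, 19.8 for Gstt3 and 10.4 for Gsta2. Lower still were Gstk1, the kappa-class enzyme of mitochondria and peroxisomes, at 8.38 FPKM, Mgst3 at 6.36, Mgst2 at 5.63, Gsto1 at 3.46 and Gstt1 at 2.56. Omega-class Gsto2 was thus far above its neighbour Gsto1 on chromosome 19. Ggt7, of the family of enzymes that split glutathione, had a median of 7.84 FPKM.

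**Figure D1:**
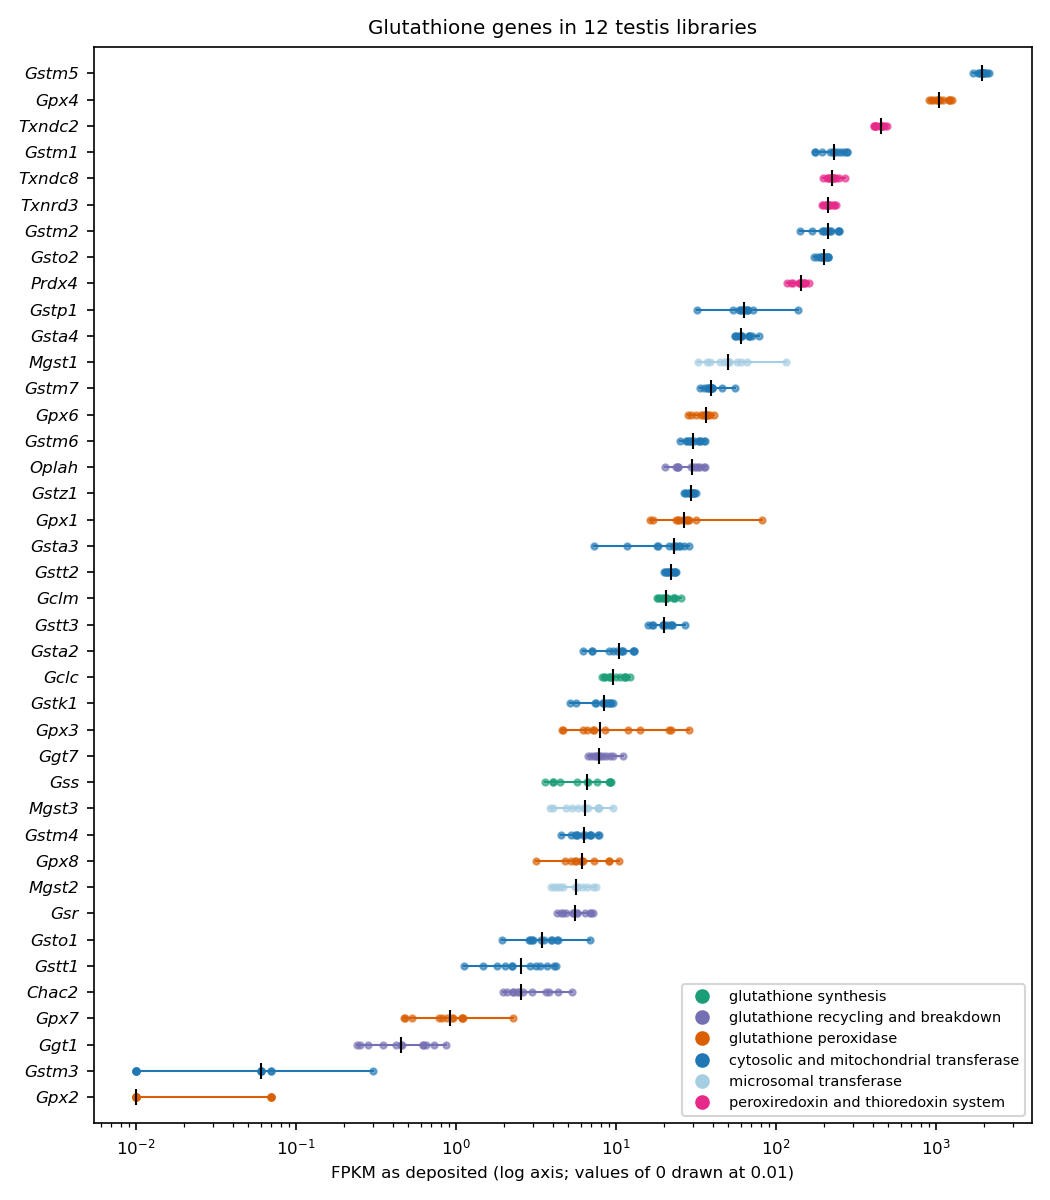
Deposited FPKM of the 40 genes on a log axis, 1 point per library and 1 row per gene, with a tick at the median over 12 libraries, colours for the roles and values of 0 drawn at 0.01. Gstm5 (median 1945) and Gpx4 (1044) lead, and Ggt1, Gstm3 and Gpx2 end the order below 0.5 FPKM.

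The mu-class genes lie in 1 cluster on chromosome 3 and span the range from the most to nearly the least abundant member. On GRCm38 (GENCODE M21) the cluster begins with Gstm5 at 107895821 to 107898686 on the plus strand. Gstm7, Gstm6, Gstm3, Gstm2, Gstm1 and Gstm4 follow on the minus strand, and Gstm4 ends at 108044894. Their median levels in that order were 1945 FPKM for Gstm5, 39.4 for Gstm7, 30.1 for Gstm6, 0.06 for Gstm3, 210 for Gstm2, 231 for Gstm1 and 6.29 for Gstm4. Gstm3 had 0 to 5 counts per library. Counts of Gstm1 and Gstm2 carried a fraction in 1 library, knockdown 2, so reads shared among such similar genes could affect them. Fractions were present in all 12 libraries for Oplah, Gstp1 and Gstz1, and in 9 for Gsta2, whose values are therefore uncertain.

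How steady a gene was over the 12 libraries differed widely among the members. On normalised CPM, the highest library exceeded the lowest by 1.23-fold for Gstt2, 1.24-fold for Txnrd3 and 1.25-fold for Gstz1, the maleylacetoacetate isomerase of tyrosine breakdown. At the other end the ratio was 6.09 for Gpx3, 4.67 for Gpx1, 4.53 for Gpx7, 3.90 for Gsta3, 3.89 for Gstt1 and 3.79 for Gstp1.

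The group labelled as overexpression of lncRNA8276 was set against 5NC to ask which of these genes differ between them. Gss, the enzyme of the last step of glutathione synthesis, was higher in overexpression and was the 1 member of 38 that passed the test. Across all tested genes 0.476% passed, and 0.256% passed as higher. Its partners in synthesis, Gclc and Gclm, did not pass, nor did any peroxidase or transferase.

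Gss had 17.0, 16.3 and 17.7 CPM in the overexpression libraries, against 7.35, 6.28 and 7.05 CPM in the 5NC libraries. The groups do not overlap, and each 5NC library lies below all 9 libraries of the other groups. Means were 17.0 ± 0.703 CPM in overexpression and 6.89 ± 0.551 CPM in 5NC (SD, n = 3 each). The log2 fold change was 1.30 ± 0.22 (SE), a 2.46-fold difference with a 95% interval of 0.83 to 1.78 on the log2 scale (adjusted p = 0.0278, edgeR quasi-likelihood test). By p-value it was number 36 of the 78 genes that passed.

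Since the groups do not overlap, any split by depth must give the same direction, so the values below do not test depth. Among the libraries with the lowest totals Gss had 16.3 CPM in overexpression 2, against 6.28 and 7.05 CPM in 5NC 2 and 5NC 3. Among the deeper ones it had 17.0 and 17.7 CPM in overexpression 1 and 3, against 7.35 CPM in 5NC 1. With a term for the 3 shallower libraries the adjusted p was 0.0502 in edgeR, at a log2 fold change of 1.26. The call rested on all 3 libraries of 5NC and on overexpression 1 and 3: leaving any of these out gave adjusted p of 0.0916 to 0.166, with log2 fold changes of 1.24 to 1.35. Without overexpression 2 it was kept (adjusted p = 0.0406).

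Gss lies on chromosome 2 at 155563181 to 155592810 on the minus strand of GRCm38 and is protein coding. In GENCODE M21, 395 of its 5915 exon bases (6.68%) overlap exons of Acss2 on the opposite strand, and shorter stretches overlap the antisense genes Gssos1 and Gssos2. No source used here gives the strand setting of the counting, and reads of overlapping genes cannot be told apart. Acss2, an acetyl-CoA synthetase, had a log2 fold change of 0.13 ± 0.11 (adjusted p = 0.681, edgeR). Of 11 other genes tested within 250 kb of Gss, 0 passed in edgeR, 3 had an unadjusted p below 0.05 (15.3% of all tested genes), and log2 fold changes ran from -0.27 to 0.82.

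Gclc, the catalytic subunit of the ligase, had 26.8, 36.5 and 26.8 CPM in overexpression, against 32.4, 34.9 and 33.8 CPM in 5NC. Gclm had 36.3, 44.9 and 35.9 CPM in overexpression, against 39.9, 48.1 and 43.8 CPM in 5NC. For both genes the groups overlap, with overexpression 2 the highest library of its group. Gsr, the reductase, had 14.7, 11.7 and 14.1 CPM in overexpression, against 17.3, 17.7 and 15.9 CPM in 5NC. All 3 overexpression libraries lie below those of 5NC, but the log2 fold change of -0.33 ± 0.12 did not pass (adjusted p = 0.209, edgeR).

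Of the transferases, Gstm1 came nearest to passing. It had 330, 305 and 335 CPM in overexpression, against 263, 219 and 245 CPM in 5NC, a log2 fold change of 0.42 ± 0.13 (adjusted p = 0.154, edgeR). Its neighbour Gstm2 had 228, 223 and 209 CPM in overexpression, against 189, 177 and 173 CPM in 5NC (0.29 ± 0.14, adjusted p = 0.355). The most abundant member, Gstm5, had 1675, 1478 and 1744 CPM in overexpression, against 1470, 1388 and 1374 CPM in 5NC (0.21 ± 0.10, adjusted p = 0.365). For these 3 genes every overexpression library lies above every 5NC library. Of the 6 mu-class genes tested, 5 had a positive log2 fold change, with a median of 0.25, while 7868 of all 16395 tested genes were positive, with a median of -0.012.

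Mgst2, a microsomal enzyme that can make leukotriene C4, had 2.17, 3.598 and 2.98 CPM in overexpression, against 2.14, 1.91 and 2.01 CPM in 5NC (0.53 ± 0.23, adjusted p = 0.295, edgeR). The groups do not overlap, though overexpression 1 lies just above 5NC 1. Gstt3, of the theta class, had 34.9, 33.7 and 30.6 CPM in overexpression, against 46.4, 36.8 and 37.97 CPM in 5NC (-0.29 ± 0.13, adjusted p = 0.326). Part of Gstt3's exons is shared with the gene model Gm20441 on the same strand.

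Among the thioredoxin and peroxiredoxin partners, Txndc2 had 814, 778 and 899 CPM in overexpression, against 720, 695 and 722 CPM in 5NC (0.22 ± 0.092, adjusted p = 0.273, edgeR). Txndc8 had 116, 107 and 123 CPM in overexpression, against 92.7, 102 and 96.2 CPM in 5NC (0.25 ± 0.11, adjusted p = 0.326). Gpx6, a selenium-independent peroxidase in the mouse, had 37.7, 31.5 and 40.1 CPM in overexpression, against 31.9, 25.6 and 29.3 CPM in 5NC (0.33 ± 0.14, adjusted p = 0.266). The Txndc2 and Txndc8 groups are separate, and those of Gpx6 overlap by 1 library of overexpression. Prdx4 had 142, 139 and 147 CPM in overexpression, against 114, 127 and 133 CPM in 5NC, and these groups do not overlap either.

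Gpx8 had 5.45, 5.36 and 5.04 CPM in overexpression, against 6.16, 7.41 and 7.48 CPM in 5NC, with every overexpression library below those of 5NC. Gpx4 had 1032, 736 and 1041 CPM in overexpression, against 1037, 773 and 831 CPM in 5NC, and its groups overlap widely (log2 fold change 0.089 ± 0.16). Outside the 10 members with the smallest p, the other 28 had log2 fold changes from -0.97 (Gpx3, SE 0.74) to 0.41 (Gsta2), with adjusted p from 0.409 to 0.99 in edgeR.

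In all, 8 members lay wholly above 5NC in overexpression and 3 wholly below it, against a background of 22.0% of all tested genes (11.7% above and 10.3% below). The 8 were Gss, Gstm1, Gstm2, Gstm5, Mgst2, Prdx4, Txndc2 and Txndc8, and the 3 were Gsr, Gstt3 and Gpx8. At an unadjusted p below 0.05 there were 6 higher and 2 lower, with 15.3% of all tested genes past that limit (8.90% higher and 6.39% lower). The median log2 fold change of the 38 members was 0.028, with 22 positive and 16 negative.

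The summed level of 10 of 10 listed markers of round spermatids, the haploid cells after meiosis, was 1734, 1502 and 1735 CPM in overexpression, against 1356, 1315 and 1341 CPM in 5NC. The sums do not overlap, which holds singly for 6 of the 10 markers and not for Acr, Spaca4, Tssk1 and Zpbp. In knockdown the sum was 1620 to 1676 CPM, also above every 5NC library, and in 3NC 1292 to 1836 CPM. The sum of 10 markers of the pachytene stage of meiosis was separate too, at 7801 to 7899 CPM in overexpression, against 7526 to 7773 CPM in 5NC. Those of spermatogonia and of elongating spermatids overlapped between these groups. The part of these cell types in the values of Gstm5, Txndc2, Txndc8 and the other members was not tested. In such whole-tissue RNA, fewer cells of a type and less RNA per cell cannot be told apart.

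**Figure D2:**
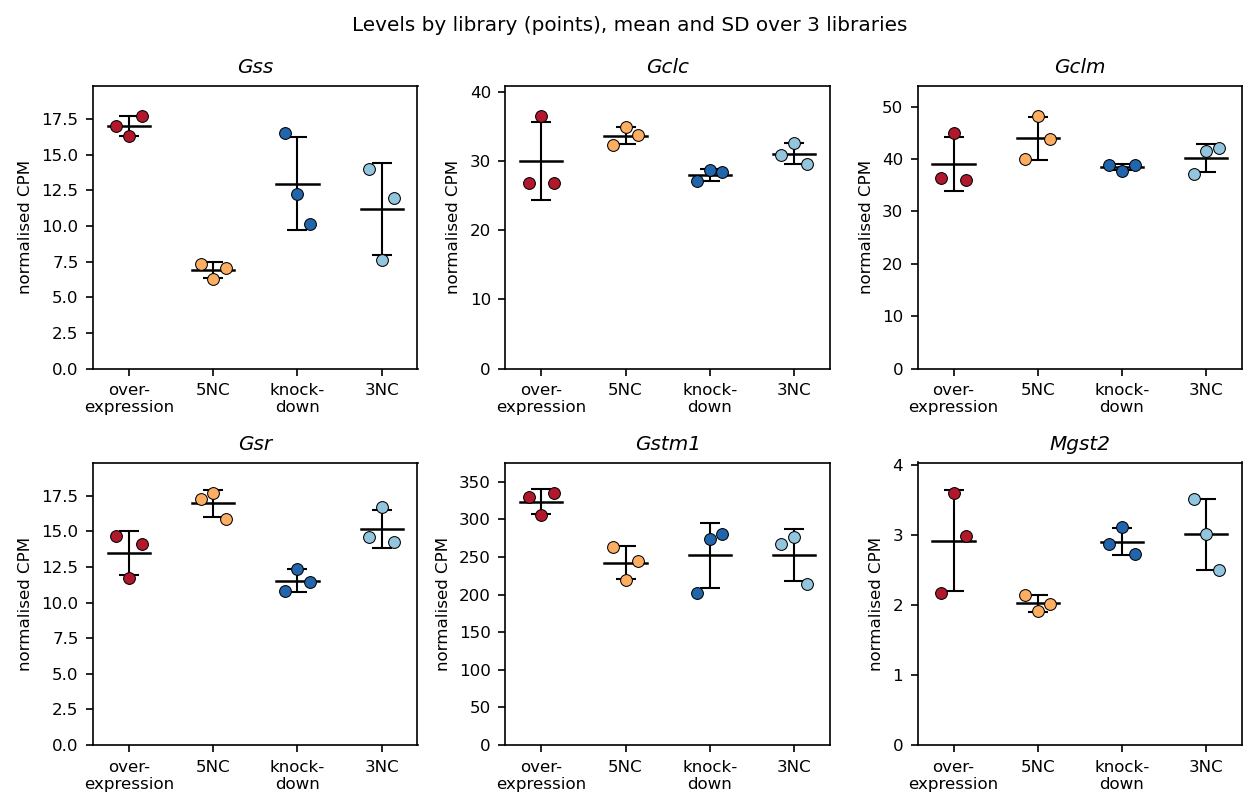
Normalised CPM of Gss, Gclc, Gclm, Gsr, Gstm1 and Mgst2 by group, 1 point per library, with a line at the mean of 3 libraries and bars of 1 SD, on axes that start at 0. In the Gss panel the 3 overexpression points (16.3 to 17.7) lie above the 3 points of 5NC (6.28 to 7.35).

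The group labelled as knockdown of lncRNA8276 was set against 3NC to ask which of these genes differ between them. Of 38 members 0 passed in edgeR, and 0 passed in DESeq2 and in limma-voom; over all tested genes 0.0183% passed in edgeR. At an unadjusted p below 0.05 there were 0 higher and 2 lower, Gsr and Mgst1, against 8.69% of all tested genes (5.43% lower). The median log2 fold change of the members was -0.012, and that of all tested genes -0.025. Here 5 of the 6 mu-class genes had a positive log2 fold change, with a median of 0.13, against 7426 of all 16395 tested genes. They are not the same 5 as in overexpression. The negative gene was Gstm6 there (-0.11 ± 0.12) and Gstm1 here (-0.002 ± 0.13), the mu-class gene nearest to passing in overexpression.

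Gss had 16.5, 12.3 and 10.2 CPM in knockdown, against 14.0, 7.64 and 11.97 CPM in 3NC. The groups overlap and each spans a wide range, with 3NC 2 the lowest of these 6 libraries. Means were 12.99 ± 3.25 CPM in knockdown and 11.2 ± 3.25 CPM in 3NC (SD, n = 3 each), and the log2 fold change was 0.21 ± 0.21 (adjusted p = 0.716, edgeR).

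Gsr had the smallest p of the members, with 10.8, 12.4 and 11.5 CPM in knockdown, against 14.6, 16.7 and 14.3 CPM in 3NC. Every knockdown library lies below every 3NC library, and the log2 fold change was -0.40 ± 0.12 (adjusted p = 0.559, edgeR), or -0.32 ± 0.12 without 3NC 2. Gclc had 27.1, 28.7 and 28.4 CPM in knockdown, against 30.9, 32.7 and 29.6 CPM in 3NC, again without overlap. Gsr and Gclc were the 2 members whose groups are separate here, both lower in knockdown, against 13.0% of all tested genes in either direction and 6.57% in that one.

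The log2 fold changes of Mgst1, Gpx1 and Gpx7 rested on library 3NC 2. Mgst1, the microsomal transferase and peroxidase, had 26.2, 31.3 and 39.8 CPM in knockdown, against 41.7, 87.9 and 31.3 CPM in 3NC, a log2 fold change of -0.73 ± 0.32 (adjusted p = 0.559, edgeR). Gpx1, the cytosolic peroxidase found in most cells, had 14.9, 22.2 and 25.6 CPM in knockdown, against 29.3, 69.7 and 16.2 CPM in 3NC (-0.88 ± 0.42, adjusted p = 0.562). Gpx7, of the endoplasmic reticulum, had a log2 fold change of -0.76 ± 0.48 (adjusted p = 0.586) at 0.511 to 1.04 CPM in knockdown, against 0.541 to 2.32 CPM in 3NC. Without 3NC 2 these values were -0.17 for Mgst1, -0.12 for Gpx1 and -0.13 for Gpx7.

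The other members among the 10 smallest p-values did not pass either. Their log2 fold changes were -0.21 for Prdx4, 0.27 for Gstm7, 0.22 for Gstt3, -0.64 for Gstt1, -0.46 for Chac2 and 0.34 for Gsta2, with adjusted p from 0.562 to 0.63 in edgeR. Gstm7 had 64.4, 43.3 and 45.7 CPM in knockdown, against 44.2, 42.8 and 40.4 CPM in 3NC. Knockdown 1 is the high library, and the other 2 of its group lie close to those of 3NC. Gsta2, of the alpha class, had 9.45, 9.57 and 7.75 CPM in knockdown, against 5.23, 6.14 and 9.87 CPM in 3NC.

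The control groups were compared with each other because each effect above is read against its own control. Between 5NC and 3NC 0 of 38 members passed in edgeR, DESeq2 or limma-voom, against 0.244% of all tested genes in edgeR. Gss had the smallest p, with 7.35, 6.28 and 7.05 CPM in 5NC, against 14.0, 7.64 and 11.97 CPM in 3NC. The groups do not overlap, with 3NC 2 close to the 5NC libraries. The log2 fold change was -0.70 ± 0.22 (adjusted p = 0.247, edgeR). Without 3NC 2 it was -0.91 ± 0.18 and passed (adjusted p = 0.0452). This comparison and that of overexpression share the 5NC libraries.

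Gstt3 had 46.4, 36.8 and 37.97 CPM in 5NC, against 36.5, 26.0 and 30.6 CPM in 3NC (log2 fold change 0.38 ± 0.13, adjusted p = 0.289, edgeR). Mgst2 had 2.14, 1.91 and 2.01 CPM in 5NC, against 3.52, 3.01 and 2.50 CPM in 3NC (-0.57 ± 0.23, adjusted p = 0.328). Gsta4, which clears the lipid aldehyde hydroxynonenal, had 55.2, 56.8 and 54.4 CPM in 5NC, against 47.6, 52.2 and 47.8 CPM in 3NC (0.17 ± 0.093, adjusted p = 0.458). Like Gss, these 3 genes had groups without overlap, and 4 of 38 members did, against 13.2% of all tested genes (7.01% above and 6.17% below). At an unadjusted p below 0.05 there were 1 higher and 2 lower, against 12.9% of all tested genes (5.01% higher and 7.87% lower).

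Gpx1 had a log2 fold change of -0.70 ± 0.42 between 5NC and 3NC (adjusted p = 0.521, edgeR), which became 0.057 without 3NC 2. The other 5 of the 10 smallest p-values were Gstm6 at 0.20, Txndc8 at -0.18, Txndc2 at -0.13, Gpx6 at -0.19 and Prdx4 at -0.14, with adjusted p from 0.494 to 0.608.

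Whether the overexpression effect differs from the knockdown effect was tested in the same model. For 0 of 38 members the difference passed in edgeR, DESeq2 or limma-voom, against 0.0183% of all tested genes in edgeR. Gss had the smallest p, with a difference of 1.09 ± 0.30 on the log2 scale (unadjusted p = 0.00374, adjusted p = 0.513, edgeR). It was followed by Prdx4 at 0.40 ± 0.14 (adjusted p = 0.638), Gstt3 at -0.51 ± 0.19 (0.668) and Gstm1 at 0.42 ± 0.19 (0.732). The next were Txndc8 at 0.33, Mgst2 at 0.58, Txndc2 at 0.20, Gpx1 at 0.92, Gstm6 at -0.23 and Gpx6 at 0.26, with adjusted p from 0.741 to 0.831. At an unadjusted p below 0.05 there were 3 higher and 1 lower, against 6.73% of all tested genes (3.93% higher and 2.80% lower). A call in the overexpression comparison and none in that of knockdown is thus not shown to be a difference between them.

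**Figure D3:**
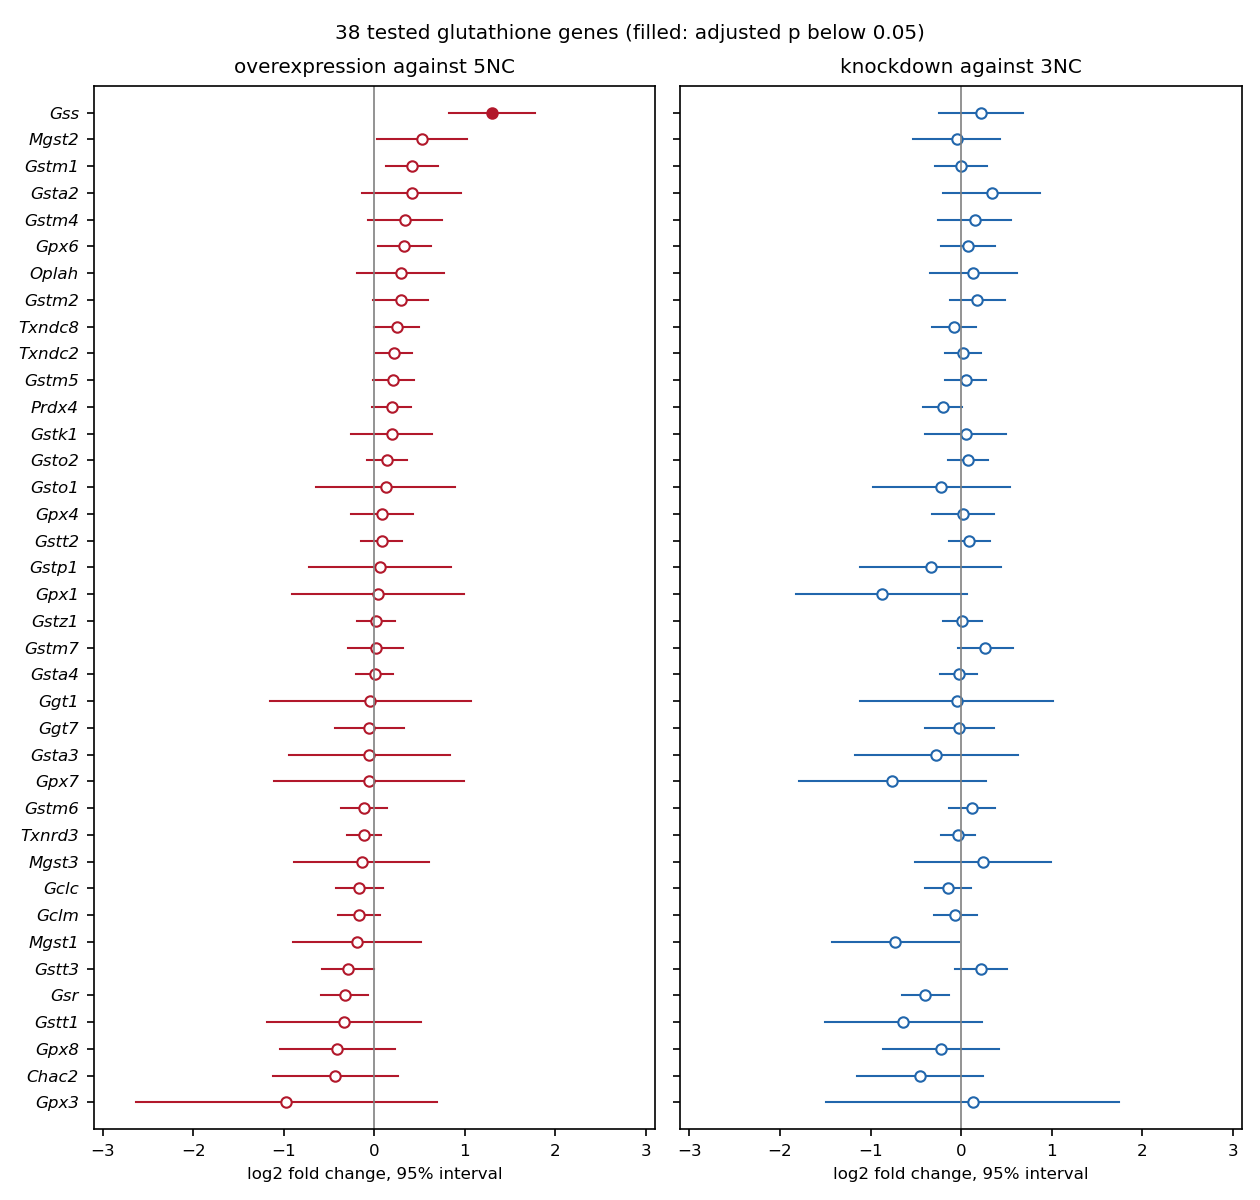
Log2 fold changes with 95% intervals for the 38 members tested, in overexpression against 5NC (left) and knockdown against 3NC (right), ordered by the left panel. A filled mark stands for a gene that passed at an adjusted p below 0.05, which is Gss alone, at 1.30 in overexpression.

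Several members followed single libraries more than groups. In 3NC 2, the library with 513 CPM of leukocyte markers, 6 genes had their highest value of all 12 libraries. These were Gpx1 at 69.7 CPM, Gstp1 at 77.6 CPM, Mgst1 at 87.9 CPM, Gsto1 at 6.76 CPM, Gpx8 at 8.33 CPM and Gpx7 at 2.32 CPM. Other members were at their lowest of all 12 libraries in 3NC 2: Ggt7, Gpx4, Gstm5, Gstt2, Gstt3, Gsto2, Gstz1, Mgst3, Txndc2 and Txnrd3. How often 3NC 2 was the highest or the lowest library over all genes was not counted. Returning to the 6 genes highest there, their lowest libraries differed. The lowest of all 12 libraries was 3NC 3 for Gstp1 (20.5 CPM), Gsto1 (2.10 CPM) and Gpx8 (2.84 CPM), with the lowest leukocyte sum, 69.7 CPM. For Gpx1 (14.9 CPM), Mgst1 (26.2 CPM) and Gpx7 (0.511 CPM) it was knockdown 1, whose leukocyte sum of 109 CPM was the third highest. All 10 leukocyte markers had counts in every library, and their sum ranged from 81.4 to 93.0 CPM in overexpression, 84.0 to 122 CPM in 5NC, 92.5 to 109 CPM in knockdown and 69.7 to 513 CPM in 3NC. Their part in these values was not tested.

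Gpx3, the secreted peroxidase, had 12.02, 8.44 and 9.48 CPM in overexpression, against 9.99, 29.8 and 19.1 CPM in 5NC. In knockdown it had 39.5, 6.48 and 9.85 CPM, against 16.7, 27.8 and 6.63 CPM in 3NC. Its high libraries were knockdown 1, 5NC 2, 3NC 2 and 5NC 3. Knockdown 1 and 5NC 2 also had the highest summed levels of epididymis markers, 850.2 and 325 CPM. That sum was 129 to 153 CPM in overexpression, 54.6 to 325 CPM in 5NC, 91.4 to 850.2 CPM in knockdown and 103 to 142 CPM in 3NC. In 5NC 2 the sum was mostly Crisp1, at 240 CPM, with Ptgds at 57.6 CPM and Adam7 at 26.2 CPM, while Lcn5, Lcn8 and Lcn9 were at 0. In overexpression the sum was mostly Ptgds, at 107 to 124 CPM. Only 3 of the 10 epididymis markers had counts in every library. Gpx5, the peroxidase secreted by the epididymis and 1 of these markers, reached 416 CPM in knockdown 1 and 10.1 CPM in knockdown 2. It was at 0.324 CPM or below in the other 10 libraries and at 0 in 3 of them. The part of these markers' source in the Gpx3 values was not tested.

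Gsta3 is an alpha-class transferase whose human counterpart isomerises steroid precursors. It had 29.4, 30.8 and 24.0 CPM in overexpression, against 35.9, 22.3 and 29.2 CPM in 5NC. In knockdown it had 9.19, 27.4 and 29.1 CPM, against 32.2, 31.5 and 15.6 CPM in 3NC. Its 3 lowest libraries were knockdown 1, 3NC 3 and 5NC 2, and these also had the lowest summed levels of 9 Leydig cell markers, at 998, 1110 and 1498 CPM. In the other 9 libraries that sum was 1796 to 2281 CPM. By group it was 2024 to 2281 CPM in overexpression, 1498 to 2066 CPM in 5NC, 998 to 2271 CPM in knockdown and 1110 to 2162 CPM in 3NC, and all 9 markers had counts in every library. Singly these 3 libraries were the lowest for Star, Cyp11a1, Cyp17a1, Hsd3b6 and Hsd17b3, and not for Hsd3b1, Insl3, Lhcgr and Nr5a1. Hsd3b1 was at 141 CPM in knockdown 1, and its lowest library was 3NC 1, at 94.9 CPM. The part of the Leydig cell sum in the Gsta3 values was not tested.

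A further set of libraries shared an order in Gpx4, Oplah, Chac2 and Gclc, genes singled out after their values were seen. Overexpression 2, 5NC 2, 5NC 3 and 3NC 2 were the 4 lowest for Gpx4, at 736, 773, 831 and 726 CPM, while the other 8 libraries had at least 850.8 CPM. They were also the 4 lowest for Oplah, at 97.5, 80.8, 98.2 and 91.2 CPM, against at least 103.9 CPM elsewhere. For Chac2 these 4 were the highest, at 4.48, 6.14, 4.24 and 4.88 CPM, against at most 3.72 CPM elsewhere. Gclc followed Chac2, at 36.5, 34.9, 33.8 and 32.7 CPM, against at most 32.4 CPM elsewhere. The same 4 libraries had the lowest summed levels of elongating spermatid markers, at 22239, 21050, 22359 and 20474 CPM, against at least 24321 CPM. Singly they were the 4 lowest for Odf1, Odf2 and Gapdhs, and not for Prm1, Prm2, Tnp1, Tnp2, Akap4, Oaz3 and Smcp. Prm1 was at 2949 and 3109 CPM in 5NC 2 and 5NC 3, against 2460 to 2572 CPM in knockdown. Of the 4 libraries, 3 are those with the lowest totals. The part of the marker sum or of the totals was not tested.

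**Figure D4:**
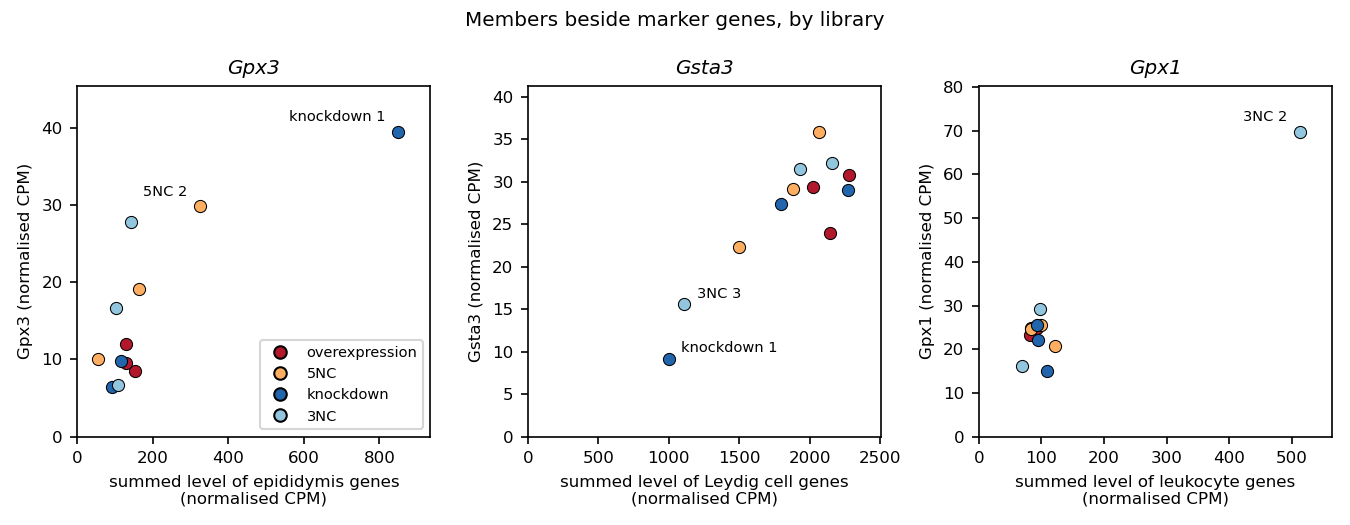
Normalised CPM of Gpx3, Gsta3 and Gpx1 (vertical axes) against the summed CPM of epididymis, Leydig cell and leukocyte markers (horizontal axes), 1 point per library coloured by group. Knockdown 1 holds the most Gpx3 (39.5 CPM) and the least Gsta3 (9.19 CPM), and 3NC 2 the most Gpx1 (69.7 CPM).

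A wider list of 60 thioredoxin, cysteine-supply and other redox genes was counted beside the members. Of these, 54 were tested, and the untested were Ggt6, Gpx5, Gsta1, Gstp2, Gstp3 and Gsta13. In overexpression against 5NC 0 passed as higher and 1 as lower, the methionine sulfoxide reductase Msrb3. At an unadjusted p below 0.05 there were 3 higher and 1 lower of 54, against 15.3% of all tested genes (8.90% higher and 6.39% lower). Msrb3 had 60.5 ± 5.81 CPM in overexpression and 94.999 ± 6.11 CPM in 5NC (SD, n = 3 each). Its log2 fold change was -0.65 ± 0.099 (adjusted p = 0.0184, edgeR). The next 3 did not pass: Srxn1, sulfiredoxin, at 0.33, Cbs, which starts the making of cysteine from homocysteine, at 0.86, and Gstt4, a theta-class transferase, at 0.28, with adjusted p of 0.145, 0.147 and 0.194.

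In knockdown against 3NC 0 of the 54 passed in edgeR, and 1 higher and 3 lower had an unadjusted p below 0.05, against 8.69% of all tested genes. These were Cth, the last enzyme of cysteine synthesis, at 0.69, Gstcd at -0.26, Slc7a11, the cystine transporter, at -0.58, and Prdx1 at -0.63, each with an adjusted p of 0.559. Prdx1 varied widely within 3NC, with 131 ± 61.7 CPM there and 84.8 ± 5.22 CPM in knockdown (SD, n = 3 each). Between 5NC and 3NC 1 gene passed, again Msrb3, at 0.58 ± 0.099 (adjusted p = 0.0404, edgeR), with 94.999 ± 6.11 CPM in 5NC and 63.5 ± 6.91 CPM in 3NC. The knockdown mean was 65.0 ± 0.912 CPM, so the 5NC mean of Msrb3 lies above those of the other 3 groups, while that of Gss lies below them. The difference between the overexpression and knockdown effects passed for 0 of the 54 in edgeR, with 3 higher and 2 lower at an unadjusted p below 0.05, against 6.73% of all tested genes.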

How the data were processed

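RNA from 12 mouse testis libraries was analysed, 3 in each of 4 groups taken from the labels. Gene-level estimated counts were deposited, as the file headers name read counts; 88.2% of the values are whole numbers. The table's other columns for each sample were read as FPKM deposited by the authors, which is inferred from the values because no header states their unit. The submitters' processing notes name the build mm10. Aligner, counting program, annotation and strand setting: not given in the sources used here. The table also has 18 per-sample columns of 9 other samples, not used here.

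Estimated counts were rounded and tested in R 4.3.3 with edgeR 4.0.16 (filterByExpr with a minimum count of 10, TMM scaling, robust quasi-likelihood F-test, 1 model of 4 group means over all 12 libraries). This kept 16395 genes, and the 4393 left out held 0.0708% of counts. P-values were adjusted by Benjamini-Hochberg over all tested genes, with 0.05 as the threshold. Fold changes carry the standard error of the fit, and CPM values are scaled by total counts and TMM factors. All library pairs differed by more than counting noise (chi-square over its degrees of freedom at least 3.12 within groups). On simulated counts the test for overexpression against 5NC recovered 28.4% of genes changed 1.5-fold, 58.7% changed 2-fold and 81.4% changed 4-fold, with 5.83% of calls false (16264 genes).

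Alternatives were DESeq2 1.42.0, limma-voom (limma 3.58.1), other scalings and filters, a replicate block, a depth term and leaving libraries out. The members, lists and tests were chosen with earlier results of these data known. For each comparison the text gives the tests of members that passed and of the 10 with the smallest p, and of the wider redox list at most 4. Gene positions are from GENCODE M21 (GRCm38) and promoters from RefSeq.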

Additional observations from a re-analysis of the deposited data

How the results depend on the processing

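Among the log2 fold changes of named members, 641 of 650 values under the alternatives kept their direction and their side of the threshold, 7 were weaker, 1 was stronger and 1 reversed. The 7 weaker values are all of Gss in overexpression against 5NC, the only named result that passed in the main fit. The others had not passed there, so the total of 641 says little about stability. In overexpression against 5NC the log2 fold change of Gss was 1.22 to 1.35 in 15 alternatives, and it passed in 8 of them. Adjusted p ran from 3.43e-05 (DESeq2) to 0.166, and was 0.691 without 5NC 2, 5NC 3 and knockdown 1 together. That fit leaves 5NC with 1 library, assumed to vary like the other groups, so its lost calls say little about stability. The count of members that passed was 0 with depth added as a term that marks the 3 shallowest libraries, 0 without 5NC 2, 5NC 3 and knockdown 1 together, and 0 to 1 when 1 library was left out. Between 5NC and 3NC it was 0 to 1 when 1 library was left out, where Gss passed without 3NC 2 (-0.91), and the log2 fold change of Gpx1 ran from -1.06 to 0.057 over these fits, reversed without 3NC 2. The count of members stayed 0 in every fit that left out 1 library for knockdown against 3NC and for the difference between the effects. Over all genes the count in overexpression against 5NC was 78, with 5 to 677 under the alternatives (highest in DESeq2), 3 where 5NC held 1 library, and 269 with the replicate block. In knockdown against 3NC it was 3 (0 to 23), between 5NC and 3NC 40 (6 to 305, and 3 with 1 library of 5NC) and for the difference 3 (3 to 53). The cause of these shifts was not tested. Replicate numbers were not taken as pairs in the main model: not every same-numbered pair deviated together, though a larger share did than of differently numbered pairs. Correlations of deviations ran from -0.12 to 0.31 for same-numbered pairs, with 8 of 18 above 0.1, against 4 of 36 for differently numbered pairs. For overexpression and 5NC they were 0.21, 0.31 and -0.12. With the replicate block Gss was at 1.31 (adjusted p = 0.0182, edgeR), and 1 member passed. Another scaling moved the median of all genes by at most 0.046 in size (log2, -0.046 for the difference between the effects). With 3 libraries a group and 28.4% of simulated 1.5-fold changes recovered, changes of that size are often missed.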

Other observations

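Other genes near Gss on chromosome 2 did not pass in any comparison in edgeR. In overexpression against 5NC the lowest adjusted p among the 11 tested within 250 kb was 0.139, for Ncoa6, a transcriptional coactivator, at a log2 fold change of -0.27. Procr, the endothelial protein C receptor, had the value farthest from 0 there, 0.82 ± 0.56 (adjusted p = 0.548), and was at -1.75 ± 0.54 between 5NC and 3NC (adjusted p = 0.236).

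The Sertoli cell cystatin gene Cst9, from the marker list, had a pattern like that of Gss, a likeness seen after its values were known. It had 49.1, 45.5 and 45.8 CPM in overexpression, against 8.04, 11.8 and 10.4 CPM in 5NC, and 41.1, 22.9 and 73.7 CPM in knockdown, against 40.9, 39.7 and 66.1 CPM in 3NC. As with Gss, each 5NC library lies below all 9 others. The summed level of the 10 Sertoli markers was 695 to 844 CPM in overexpression, against 618 to 763 CPM in 5NC. That sum includes Cst9 and is mostly Clu, at 546 to 692 CPM in overexpression, against 511 to 649 CPM in 5NC. The part of Sertoli cells in the Cst9 values was not tested.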
